A study of Mus musculus with 4 samples.

Results

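The time change of gene expression was compared between the embryonic and the extra-embryonic side of the mouse embryo, so that each gene could be placed as changing alike in both, in 1 side, or in opposite directions. The quantity compared was the interaction, the log2 change from E4 to D10 in the inner cell mass (ICM) minus the same change in the trophectoderm (TE). A positive interaction means that the ICM change lay above the TE change. Members were the rows of the count table with the biotype protein_coding, 15379 of 21470 rows, of which 6680 had enough counts to be tested, and p-values were adjusted over all 6943 tested rows of any biotype.

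The 4 groups of 5 libraries were E4 ICM, D10 ICM, E4 TE and D10 TE. Every embryo was wild type (WT) with a B6D2F1 father and an ICR mother, and none carried a transgene or deletion according to the labels. ICM stands for the embryonic side and TE for the extra-embryonic side after their separation with the HTlasr system. The 3′ ends of polyadenylated RNA were counted by BRB-seq, in which every sample receives a barcode at reverse transcription. The 5 libraries of a group were then amplified as 1 pool, so pool and group cannot be told apart. Replicates with the same number in ICM and TE shared a litter within a time, and litters differed between times. The barcode list places E4 before diapause and D10 at its day 6, as the title does, whereas the protocol calls every dissected embryo a diapause embryo, and this conflict was not resolved. Whether a library held 1 embryo or several is not given in the sources used here, and the p-values describe only how much these libraries vary.

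In diapause the blastocyst pauses reversibly in the uterus, and growth and division slow before implantation. The ICM holds the epiblast, which forms the fetus, and the primitive endoderm, which lines the yolk sac, while the TE forms the placenta and is the layer that touches the uterus. Cholesterol is built from acetyl-CoA through mevalonate, squalene and lanosterol. The transcription factor SREBP2, encoded by Srebf2, switches on the enzymes of that route when sterols are scarce, and the Insig proteins hold SREBP2 back in the endoplasmic reticulum when sterols are plentiful.

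Genes of sterol synthesis and its control accounted for 8 of the 23 genes that rose in ICM and fell in TE, and the upstream sequences of 4 of them are printed to show what they share and what they do not. RefSeq promoters of build GRCm38.p6, running from 250 bases before to 50 after a transcription start, were given for 11 of the 15 sterol enzyme and control genes with a called interaction, as 12 promoters. Each is written 5′ to 3′ on the gene's strand, and capitals mark matches on either strand to CCAAT, the core bound by the factor NF-Y, to TCACNCCAC, a sterol regulatory element bound by SREBP, or to CACGTG, an E-box.
Srebf2 promoter, chr15:82147019-82147318, plus strand: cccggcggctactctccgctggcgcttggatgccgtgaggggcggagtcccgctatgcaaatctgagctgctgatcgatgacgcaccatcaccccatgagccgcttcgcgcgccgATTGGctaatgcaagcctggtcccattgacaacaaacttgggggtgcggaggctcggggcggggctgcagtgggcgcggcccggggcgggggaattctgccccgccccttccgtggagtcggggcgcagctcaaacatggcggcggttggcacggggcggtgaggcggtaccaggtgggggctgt
Hmgcs1 promoter, chr13:119690101-119690400, plus strand: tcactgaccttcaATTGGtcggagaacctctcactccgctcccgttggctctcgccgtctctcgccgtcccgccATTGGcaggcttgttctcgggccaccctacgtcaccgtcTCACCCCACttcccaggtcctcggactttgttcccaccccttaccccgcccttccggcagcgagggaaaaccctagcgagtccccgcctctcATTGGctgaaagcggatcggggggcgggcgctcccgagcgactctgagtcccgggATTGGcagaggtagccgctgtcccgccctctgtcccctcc
Msmo1 promoter, chr8:64733529-64733828, minus strand: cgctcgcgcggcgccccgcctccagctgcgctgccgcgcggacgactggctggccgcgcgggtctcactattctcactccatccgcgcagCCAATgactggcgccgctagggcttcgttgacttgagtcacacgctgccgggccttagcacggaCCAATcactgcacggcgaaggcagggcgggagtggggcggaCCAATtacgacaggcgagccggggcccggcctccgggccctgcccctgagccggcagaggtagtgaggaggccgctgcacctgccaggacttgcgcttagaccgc
Sc5d promoter, chr9:42264251-42264550, minus strand: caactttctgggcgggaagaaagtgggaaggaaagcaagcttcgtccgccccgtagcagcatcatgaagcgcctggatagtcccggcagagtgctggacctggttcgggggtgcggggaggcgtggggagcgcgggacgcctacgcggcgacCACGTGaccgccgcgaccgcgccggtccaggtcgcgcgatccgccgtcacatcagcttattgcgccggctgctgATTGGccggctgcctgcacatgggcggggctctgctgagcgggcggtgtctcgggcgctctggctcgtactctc
Hmgcs1 held 4 CCAAT cores, at -237, -176, -45 and 11 from the start, and the single TCACNCCAC element of the 12 promoters, at -137. Msmo1 held 3 CCAAT cores and Srebf2 held 1, at -135. Sc5d held 1 CCAAT core at -24 and an E-box at -98. CCAAT was found in 10 of the 12 promoters, against 37.7% of the 6911 promoters of tested protein-coding genes and 37.4% of all 32851 promoters in the table. TCACNCCAC was found in 1.06% and CACGTG in 11% of the promoters of tested genes. These matches describe letters in a 300-base window and carry no measurement of binding.

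Of the 6680 protein-coding genes tested, 278 had a called interaction, meaning an adjusted p below 0.05 by edgeR's quasi-likelihood test, and 1208 had an unadjusted p below that level. The ICM change lay above the TE change for 161 genes and below it for 117, where over all 6943 rows tested the shares called were 3.1% and 1.81%. Within ICM, 853 protein-coding genes rose (12.8% of those tested) and 669 fell (10%). Within TE, 784 rose (11.7%) and 633 fell (9.48%). Over all rows tested, 13.4% rose and 9.88% fell in ICM, and 11.8% rose and 9.82% fell in TE. Fitting the shared litter as a replicate block within each time called 247 genes with a higher and 180 with a lower interaction, and 156 and 109 of these were among the 161 and 117. Each change in these bulk samples may be fewer cells of a type or less RNA per cell, which cannot be told apart.

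Classes were set by calls and not by size. A gene was opposite or restricted to 1 tissue only where the interaction itself was called. It was shared only where both tissues were called in the same direction and the 95% interval of the interaction lay within 1 log2 unit of 0. By this rule 23 genes were opposite with ICM up and TE down, 0.344% of the protein-coding genes tested. The reverse class, ICM down and TE up, held 8 genes (0.12%). In ICM only, 70 genes rose (1.05%) and 49 fell (0.734%). In TE only, 52 rose (0.778%) and 57 fell (0.853%). Shared changes numbered 66 up (0.988%) and 84 down (1.26%). Over all 6943 rows tested of any biotype, the shares in the same order were 0.519%, 0.158%, 1.3%, 0.72%, 0.778%, 1.08%, 0.979% and 1.24%. Class sizes depended on the setting. The class falling in ICM only went from 49 to 78 genes with the replicate block, to 12 when E4 litters that kept a zona were left out (8 of the 49 among them) and to 17 after thinning all libraries to 1 total. Without those litters the shared rises went from 66 to 14. The 8 genes of the smaller opposite class became 3 without E4 ICM replicate 2 or without D10 ICM replicate 2. The other classes are given with the effects of processing.

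Most genes fell in no class. A further 408 genes were called in the same direction in both tissues, but the interval of their interaction reached beyond 1 log2 unit. Of 1741 genes called in 1 tissue, 1513 had no called interaction, so a call in 1 tissue alone did not place a gene as restricted to it. In the plot of ICM against TE change, the opposite genes lie in the upper left and lower right quadrants and the shared genes along the diagonal. Across the 6680 genes the changes had a Pearson correlation of 0.553, which describes genes of the same 20 libraries and carries no test.

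**Figure D1:**
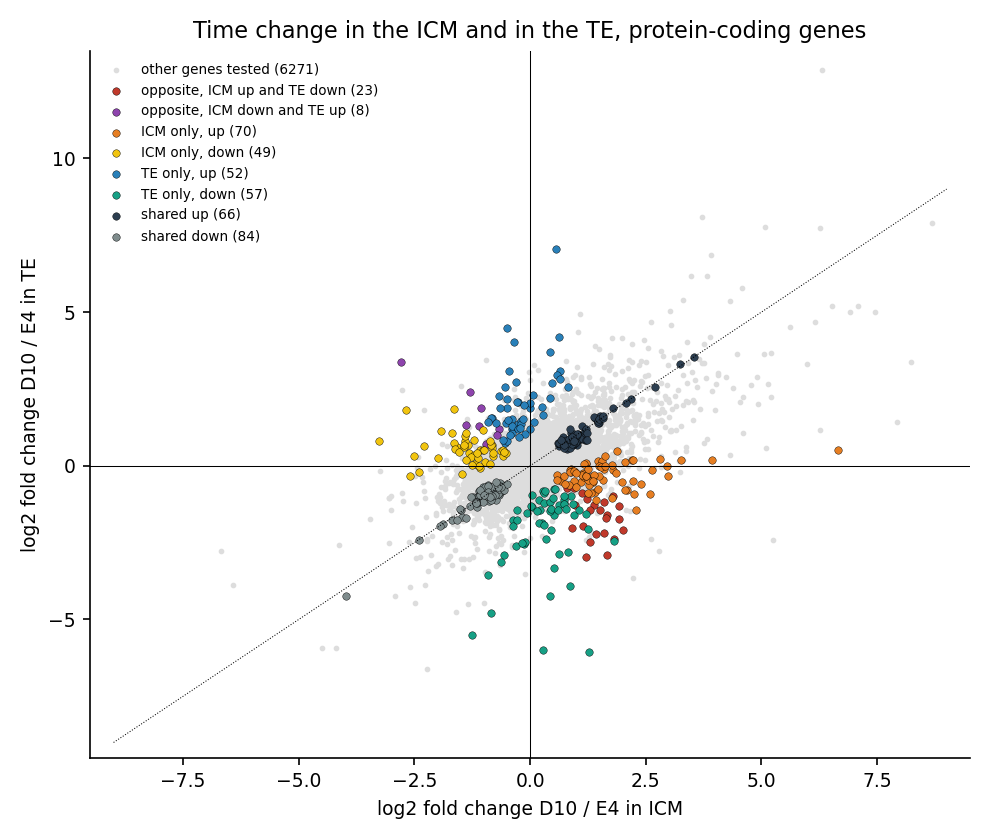
Log2 change from E4 to D10 in ICM (x axis) and TE (y axis), 1 point for each of 6680 protein-coding genes, coloured by class. The 23 genes rising in ICM and falling in TE lie in the lower right quadrant and the 8 of the reverse class in the upper left. The 150 shared genes lie along the diagonal.

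The group that rose in ICM and fell in TE was led by cholesterol synthesis and its control. Of the 20 listed synthesis enzymes 16 were tested, and 12 had a called higher interaction and none a called lower one, against 161 and 117 of all 6680 genes. All 16 interactions were positive. In ICM 8 rose, and in TE 11 fell. Their median change was 1.14 in ICM and -1.26 in TE, and their median interaction was 2.53, where the medians of all protein-coding genes were -0.01, 0.02 and -0.02. Sterol synthesis at D10 in ICM was already known from earlier work on these data when the list was chosen, so its count is not independent evidence of direction.

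Summed over the 16 enzymes, E4 ICM libraries held 875, 938, 924, 972 and 1032 CPM (depth-scaled counts, on library totals adjusted by TMM factors) in replicates 1 to 5. D10 ICM libraries held 1920.4, 2645, 659, 4151 and 1876 CPM. E4 TE libraries held 921, 1037, 1224, 665 and 1223 CPM, and D10 TE libraries 471, 444, 445, 332 and 355 CPM. Thus 4 of 5 D10 ICM libraries lay above every E4 ICM library and replicate 3 lay below them all, while all D10 TE libraries lay below all E4 TE libraries. This holds for the sum. Taken singly, 5 of the 12 called enzymes had no overlap between times in TE, and none of them in ICM. At E4 the tissues overlapped, and none of the 12 called enzymes differed between them by edgeR's test. At D10 all 12 were called higher in ICM than in TE. D10 ICM replicate 3 was the lowest of its group for 15 of the 16 enzymes. That library also had the highest mitochondrial share of all libraries (18.9% of counts), and its part in the result was not tested beyond leaving it out. Without it and D10 TE replicate 1 together, 12 enzymes were still called. The number called was 11 with the replicate block, 8 with limma voom, 8 once both E4 litters with a zona pellucida were dropped (the coat around the early embryo), and 7 with all libraries thinned to 1 total.

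Srebf2 (ENSMUSG00000022463, chr15:82147181-82205379 in GRCm38, plus strand) encodes SREBP2, the activator of the route. In ICM it lay at 31.7, 36.6, 55.6, 62.0 and 68.8 CPM at E4 and at 199.6, 87.3, 38.8, 150.1 and 121 CPM at D10. In TE it lay at 86.3, 20.7, 51.1, 25.9 and 42.9 CPM at E4 and at 7.3, 4.08, 6.02, 5.24 and 2.73 CPM at D10. The TE groups did not overlap, and the ICM groups overlapped through D10 replicate 3 alone. Srebf2 rose by 1.21 ± 0.34 on the log2 scale (SE, adjusted p = 0.0102) in ICM and fell by 2.97 ± 0.49 (adjusted p = 7.05e-05) in TE. Its interaction was 4.17 ± 0.59 (adjusted p = 3.69e-05). The D10 TE values rested on 13 counts over 5 libraries.

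Hmgcs1 (ENSMUSG00000093930, chr13:119690379-119708260, plus strand) encodes the synthase that makes the precursor of mevalonate, and its promoter holds the only exact match to TCACNCCAC printed above. Its ICM values were 127, 96.6, 71.8, 114 and 90.3 CPM at E4 and 285, 308, 94.2, 557 and 204 CPM at D10. Its TE values were 115, 104, 127, 87.7 and 122 CPM at E4 and 67.5, 73.4, 50.2, 22.7 and 27.3 CPM at D10. Every D10 TE library lay below every E4 TE library. The interaction of Hmgcs1 was 2.78 ± 0.49 (adjusted p = 0.00102), from 1.60 ± 0.33 in ICM and -1.17 ± 0.36 in TE.

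Later steps of the route were called as well. Msmo1 (ENSMUSG00000031604, chr8:64718139-64733792, minus strand), a methylsterol oxidase, stood at 76.1, 125, 125, 88.9 and 94.6 CPM in E4 ICM and 318, 506, 99.7, 669 and 334 CPM in D10 ICM. In TE it stood at 115, 124, 170.4, 51.8 and 143 CPM at E4 and 43.8, 44.9, 62.2, 41.9 and 46.4 CPM at D10. The TE groups overlapped through E4 replicate 4 and D10 replicate 3. Its interaction was 3.24 ± 0.50 (adjusted p = 0.000161). Sqle (ENSMUSG00000022351, chr15:59315077-59331192, plus strand), squalene epoxidase, stood at 80.6, 58.1, 166, 75.7 and 107 CPM in E4 TE and 21.9, 18.4, 14.0, 8.73 and 5.46 CPM in D10 TE, with no overlap. Its ICM change of 0.81 ± 0.33 missed the threshold (adjusted p = 0.0714), so Sqle is placed as falling in TE only, with an interaction of 3.60 ± 0.51 (adjusted p = 3.69e-05).

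Among the other enzymes, Cyp51, the lanosterol demethylase, had an interaction of 4.55 ± 0.87, and Sc5d, a sterol desaturase, one of 4.10 ± 0.83. Lss, which closes the ring of lanosterol, had 3.35 ± 0.64, and Fdft1, squalene synthase, had 3.31 ± 0.80. The Cyp51 call was lost with limma voom and the Lss call after thinning. Mvd, the mevalonate diphosphate decarboxylase, rose in ICM only, by 2.39 ± 0.44, with an interaction of 2.99 ± 0.65. Acat2 (2.24 ± 0.46), Pmvk (2.29 ± 0.66) and Nsdhl (1.95 ± 0.46) were also called. The 3′ ends of Cyp51 and Lss overlap genes on the opposite strand, Acat2 has the near-identical copy Acat3, and the sources used here do not state whether counting used strand, so the values of these 3 genes are uncertain. The interactions of Mvk (1.82), Dhcr7 (1.48), Ebp (1.07) and Hsd17b7 (0.65) missed the threshold, which does not show that their changes were equal in both tissues.

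Srebf2 and Insig1 were among the control and transport genes called higher, and none of the 12 tested was called lower. Insig1, which retains SREBP2, was the exception to the pattern at E4. It was higher in TE at E4 (ICM minus TE -2.57 ± 0.57, adjusted p = 0.00202), and its call was lost in 13 of 31 alternatives, among them the removal of a single library: replicates 1, 3 and 4 of E4 ICM, 3 and 5 of E4 TE, 4 and 5 of D10 ICM, and 1 and 4 of D10 TE. Abca1 (1.52), a cholesterol exporter, and Stard4 (1.48), a sterol carrier, missed the threshold. Of 15 fatty acid genes, Fads1, Scd2 and Acsl3 were called higher, with interactions of 3.72, 2.53 and 1.90, and Elovl7 lower, with -2.32. The call was lost in 8 of 30 alternatives for Fads1 and in 14 of 31 for Scd2. The summed level of 7 primitive endoderm markers was also higher in ICM at D10 (4822 to 7825 CPM) than at E4 (1633 to 4156 CPM). All 7 had counts in both groups, which does not show that each rose. Of these markers, Gata4 and Sox17 had no called change in ICM. The part of the 7 markers in the sterol result was not tested.

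**Figure D2:**
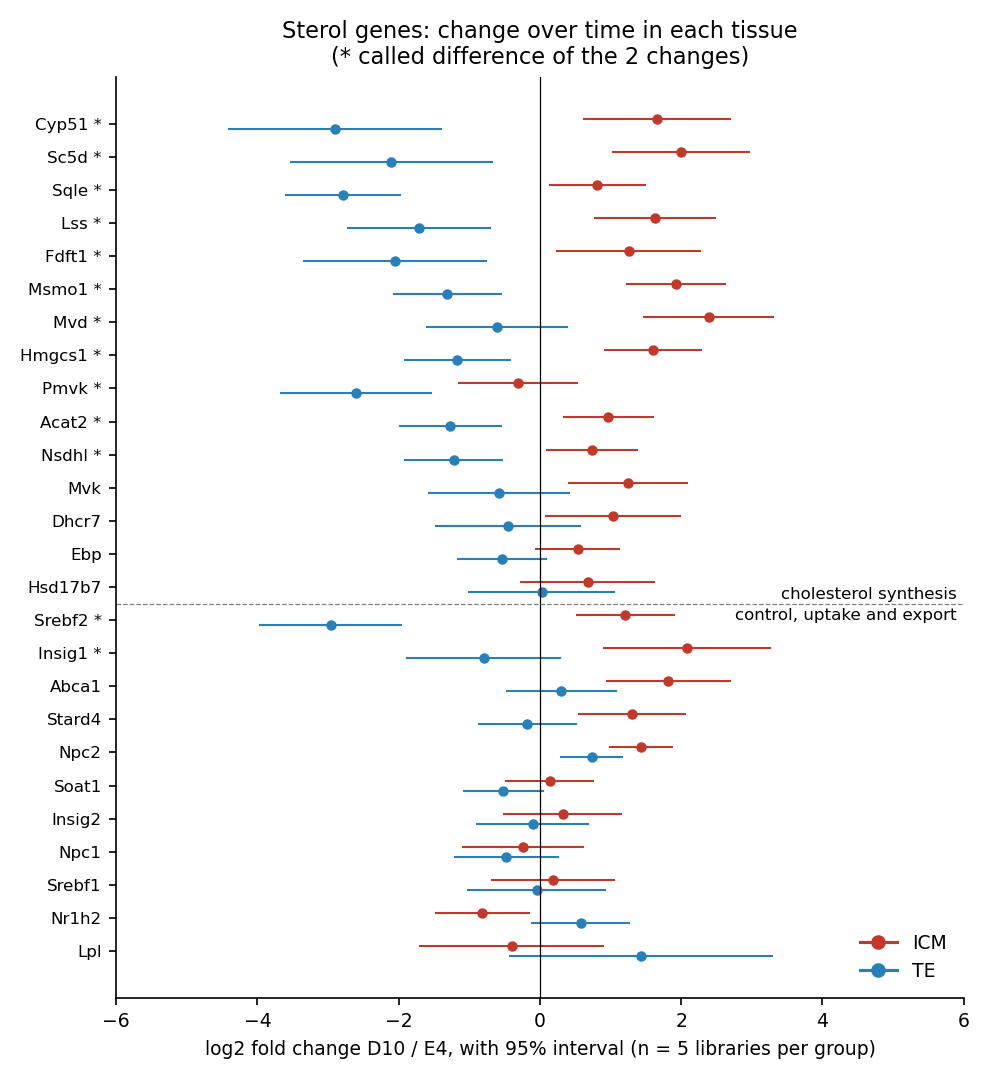
Log2 change from E4 to D10 with its 95% interval for 15 cholesterol synthesis and 11 control genes, in ICM and in TE, with a star for a called interaction. All 15 synthesis genes shown have the ICM change above the TE change, and 11 of them carry the star.

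Outside the sterol route, the class rising in ICM and falling in TE included Dnmt3l and Epas1. Dnmt3l (ENSMUSG00000000730, chr10:78041947-78063622, plus strand), the inactive partner of the de novo DNA methyltransferases, stood at 82.4, 120.1, 308, 147 and 98.9 CPM in E4 ICM and 271, 282, 288, 324 and 297 CPM in D10 ICM. In TE it stood at 92.1, 178, 119, 163 and 186 CPM at E4 and 54.8, 42.8, 12, 31.4 and 38.2 CPM at D10. One E4 ICM library, replicate 3, lay among the D10 values, and the TE groups were apart. Dnmt3l rose by 0.91 ± 0.29 in ICM and fell by 2.03 ± 0.33 in TE (interaction 2.93 ± 0.44, adjusted p = 8.91e-05). Epas1, a hypoxia-inducible transcription factor, had an interaction of 3.12 ± 0.59 and passed from the TE to the ICM as the higher tissue.

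Serf2, Rpl37 and Rps27rt were also in this class but share sequence with other genes. Serf2 (chr2:121449195-121458313, plus strand) fell in TE from 231 ± 49.2 to 41.3 ± 9.11 CPM (SD, n = 5) and rose in ICM from 23.4 ± 8.96 to 57.0 ± 18.1 CPM. The TE times were apart, and the ICM times overlapped through E4 replicate 3 and D10 replicate 5. It shares its 3′ end with Hypk on the same strand, and with both summed the interaction moved from 3.78 to 2.63 and stayed called. Rpl37 (chr15:5116645-5119140, plus strand), a ribosomal protein, rose in ICM from 1567 ± 174 to 4094 ± 1594 CPM and fell in TE from 2334 ± 167 to 967 ± 246 CPM. Over the same interval its copy Rpl37rt went from 154 ± 35.3 to 2253 ± 591 CPM in TE. With the copies summed, the Rpl37 interaction moved from 2.66 to 1.01 and was no longer called (adjusted p = 0.0726). Of the 23 genes of the class 6 had a near-identical copy (26.1%), against 5.72% of tested protein-coding genes.

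The reverse class was small and held the DNA methylation factor Hells, a chromatin remodelling helicase (ENSMUSG00000025001, chr19:38930915-38971051, plus strand). Hells stood at 114, 125, 250.2, 139 and 77.4 CPM in E4 ICM and 99.8, 61.0, 27.7, 76.6 and 65.0 CPM in D10 ICM. In TE it stood at 11.5, 29.0, 17, 23.9 and 28.6 CPM at E4 and 54.8, 67.3, 48.1, 52.4 and 43.7 CPM at D10. The ICM groups overlapped and the TE groups did not. Hells fell by 1.10 ± 0.28 in ICM and rose by 1.28 ± 0.35 in TE (interaction -2.38 ± 0.45, adjusted p = 0.00166). It was higher in ICM at E4, by 2.71 ± 0.34, and was not called between tissues at D10 (0.33 ± 0.29).

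Prep (chr10:45067203-45167198, plus strand), the prolyl oligopeptidase, went from 178, 185, 167, 141 and 138 to 66.5, 59.3, 111, 113 and 65.0 CPM in ICM. In TE it went from 138, 195, 148, 109.6 and 136 to 195, 192, 219, 260.3 and 325 CPM. Only in ICM were the times apart, since E4 TE replicate 2 reached the D10 TE values. Its interaction was -1.66 ± 0.32 (adjusted p = 0.00171). Pnpla6, a lysophospholipase, had -2.72 ± 0.55, and Tuba4a, an alpha-tubulin, had -3.68 ± 0.64. Ei24, a p53-induced membrane protein, had -1.86 ± 0.35. The 3′ ends of Tuba4a and Ei24 overlap genes on the opposite strand and are uncertain for that reason. Gulo, the last enzyme of vitamin C synthesis, fell in ICM from 47 counts over 5 libraries to 8 and rose in TE from 8 to 146, with an interaction of -6.18 ± 1.18 that was not called by limma voom. Tex19.1 and Socs2 complete the 8.

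Genes that rose in ICM alone included a survival factor, a phospholipid enzyme and a factor of secretory stress. Among these 70 genes, 34 had been called higher in TE at E4 and were not called between tissues at D10, and 26 gained a higher ICM level at D10. The class medians were 1.41 in ICM and -0.30 in TE. Bcl2l1 (ENSMUSG00000007659, chr2:152780668-152831728, minus strand), which encodes the survival protein BCL-XL, went from 19.0, 26.1, 27.8, 28.9 and 8.6 CPM to 119, 107, 133, 94.5 and 116 CPM in ICM. In TE it lay at 63.3, 45.6, 107, 59.8 and 78.7 CPM at E4 and 78.5, 79.5, 58.2, 96.1 and 101 CPM at D10. All D10 ICM values lay above all E4 ICM values and the TE times overlapped. Genes picked to represent a class restricted to 1 tissue had to lack overlap in that tissue. The separation in ICM was thus set by this naming rule and is no finding. Of the 70 genes, 45 had no overlap in ICM. Bcl2l1 rose by 2.23 ± 0.28 in ICM against 0.20 ± 0.25 in TE (interaction 2.03 ± 0.38, adjusted p = 0.00151).

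Ddah2 (chr17:35059035-35062095, plus strand), of the dimethylarginine hydrolase family, gained its ICM excess over the interval. It went from 19.0, 20.9, 18.5, 31.0 and 34.4 CPM to 162, 157, 166, 137 and 167 CPM in ICM, with the D10 libraries close together. In TE its mean was 28.5 ± 30.0 CPM at E4 and 30.2 ± 7.64 CPM at D10 (SD, n = 5). Pcyt2, which controls phosphatidylethanolamine synthesis, rose in ICM from 48.6 ± 14.4 to 165 ± 83.9 CPM (interaction 2.10 ± 0.45). Crip1, a LIM domain protein, rose in ICM from 80.2 ± 26.9 to 219 ± 74.7 CPM (interaction 2.26 ± 0.45). Syt15, a synaptotagmin family member, went from 5 counts over the E4 ICM libraries to 745 at D10 and lay at 162 ± 115 and 241 ± 127 CPM in TE, and its interaction was not called by limma voom. Xbp1, a transcription factor of the endoplasmic reticulum stress response, also rose in ICM only (1.37 ± 0.36, interaction 1.86 ± 0.50), a call lost without E4 ICM replicate 2, E4 TE replicate 4 or D10 ICM replicate 2.

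Genes falling in ICM alone included factors of DNA methylation, replication and ribosome assembly. Of these 49 genes, 33 had been higher in ICM at E4 and were no longer called between tissues at D10. The class medians were -1.26 in ICM and 0.50 in TE, where by the definition of the class no change was called. Uhrf1 (ENSMUSG00000001228, chr17:56303321-56323486, plus strand), which brings the maintenance methyltransferase to newly copied DNA, went from 228, 144, 169, 182 and 155 CPM to 109, 42.8, 27.7, 39.9 and 65.0 CPM in ICM. In TE it went from 11.5, 24.9, 17, 15.9 and 28.6 CPM to 42.0, 65.2, 12, 34.9 and 46.4 CPM. All D10 ICM libraries lay below the E4 ones, as the naming rule required, and the TE times overlapped through D10 replicate 3. Of the 49 genes, 38 had no overlap in ICM. Uhrf1 fell by 1.68 ± 0.32 in ICM, its TE change of 1.08 ± 0.41 missed the threshold (adjusted p = 0.0566), and the interaction was -2.76 ± 0.51 (adjusted p = 0.00151). That call was lost when all libraries were thinned to 1 total.

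Ltv1 (chr10:13178140-13193168, minus strand), an assembly factor of the small ribosomal subunit, fell in ICM from 207 ± 22.7 to 118 ± 25.7 CPM, with TE at 171 ± 23.8 and 233 ± 32.1 CPM. Its interaction was -1.22 ± 0.26 (adjusted p = 0.00499). Rbpj, the DNA-binding partner of Notch, fell in ICM from 176 ± 26.4 to 66.7 ± 14.8 CPM against 31.1 ± 12.6 and 37.2 ± 9.6 CPM in TE. The Rbpj call (interaction -1.60) did not survive thinning, nor the omission of both E4 litters with a zona. Mcm7, a subunit of the replication helicase, fell from 158 ± 54.8 to 81.6 ± 27.2 CPM in ICM (interaction -1.69 ± 0.40), and its 3′ end overlaps Cops6 on the opposite strand. Rpl41 was also in the class, but with its copy summed the interaction went from -1.37 to -0.42 and was not called (adjusted p = 0.365).

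**Figure D3:**
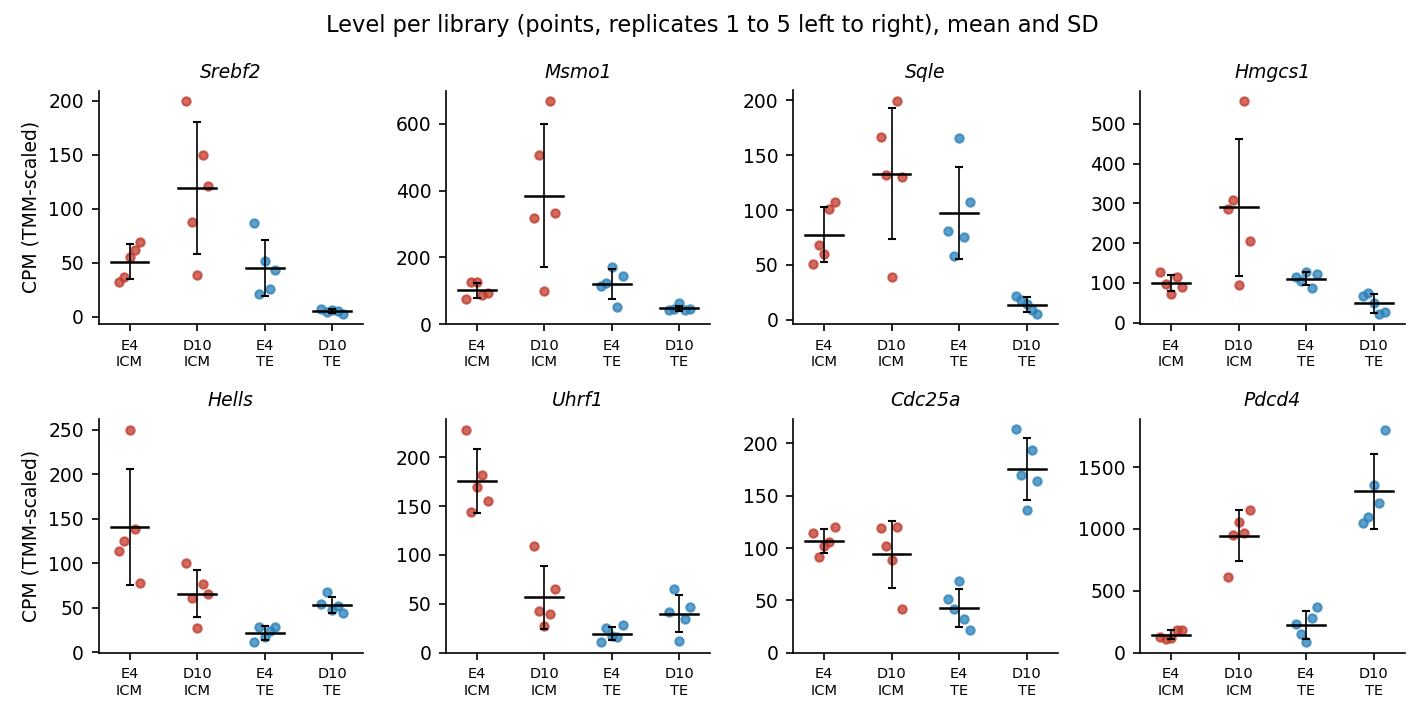
CPM in each of the 5 libraries of the 4 groups, with the mean and SD, for Srebf2, Msmo1, Sqle, Hmgcs1, Hells, Uhrf1, Cdc25a and Pdcd4. D10 ICM replicate 3 is the low D10 ICM point of the 4 sterol genes, and Pdcd4 is higher at D10 in both tissues.

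Genes rising in TE alone included regulators of the cell cycle and chromatin. Of the 52 genes, 26 had been higher in ICM at E4 and were no longer called between tissues at D10, and 18 gained a higher TE level. Cdc25a (ENSMUSG00000032477, chr9:109875579-109893895, plus strand), the phosphatase that activates cyclin-dependent kinases, went from 51.8, 41.5, 68.2, 31.9 and 21.5 CPM to 214, 169, 136, 194 and 164 CPM in TE. In ICM it lay at 114, 91.4, 102, 105 and 120.4 CPM at E4 and 119, 102, 88.6, 119.6 and 41.8 CPM at D10. The TE times were apart, as the naming rule required, and the ICM times overlapped. Of the 52 genes, 40 had no overlap in TE. Cdc25a rose by 1.98 ± 0.27 in TE (interaction -2.10 ± 0.36, adjusted p = 0.000629) and passed from higher in ICM at E4 (1.25 ± 0.28) to higher in TE at D10 (ICM minus TE -0.86 ± 0.24).

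Baz2b (chr2:59899363-60209839, minus strand), a bromodomain protein of chromatin remodelling complexes, went from 17.3, 20.7, 4.87, 31.9 and 28.6 CPM to 115, 141, 179, 122 and 122.9 CPM in TE. Its ICM means were 38.7 ± 25 CPM at E4 and 33.3 ± 9.66 CPM at D10. The lowest D10 TE library lay above the highest E4 TE library, as the naming rule required. Sin3b, a corepressor scaffold, rose in TE from 215 ± 42.7 to 539.6 ± 202 CPM (interaction -1.7 ± 0.33), and Slc1a5, a glutamine transporter, rose from 11 counts over the E4 TE libraries to 397 at D10. The Slc1a5 call was lost with limma voom. Rpl32, a ribosomal protein whose 3′ end overlaps Cand2 on the opposite strand, rose in TE by 1.52 ± 0.21 (interaction -1.68 ± 0.29). Trp53, which encodes p53, rose in TE from 16 to 134 counts over 5 libraries and lay at 141 ± 22.2 and 144 ± 30.9 CPM in ICM, and its interaction (-2.23 ± 0.48) was not called after thinning.

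Both receptor subunits for leukaemia inhibitory factor (LIF), a cytokine needed for implantation, belonged to this class. Lifr had 1 count over all E4 TE libraries and 45 at D10, a ratio of 26.5 with an exact counting interval of 4.53 to 1072, and the interval covers counting error only. In ICM Lifr lay at 46.4 ± 17.8 CPM at E4 and 77.6 ± 28.1 CPM at D10. Il6st, the common signalling subunit, had 9 counts in E4 TE and 76 in D10 TE. Its adjusted p for the interaction was 0.0304 and that of Lifr 0.0222 by edgeR's test. The Lifr call was lost with limma voom, without the E4 litters with a zona, and without E4 TE replicate 4, and that of Il6st in 14 of 31 alternatives. The other 10 tested genes of the LIF list had no called interaction.

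Genes falling in TE alone included Gsta4, B4galt5 and Cbs beside the sterol genes. Of the 57 genes, 29 had been higher in TE at E4 and were no longer called between tissues at D10, and 22 gained a higher ICM level. Gsta4 (ENSMUSG00000032348, chr9:78182774-78209349, plus strand), a glutathione transferase that clears products of lipid peroxidation, went from 478, 577, 521, 418 and 451 CPM to 74.8, 122, 56.2, 73.4 and 95.6 CPM in TE. In ICM it lay at 374, 293, 269, 209 and 211 CPM at E4 and 247, 250.5, 277, 193 and 274 CPM at D10. The TE times were apart, as the naming rule required, and the ICM times were mixed. Of the 57 genes, 48 had no overlap in TE. Gsta4 fell by 2.53 ± 0.22 in TE (interaction 2.41 ± 0.30, adjusted p = 3.77e-06) and passed from higher in TE at E4 to higher in ICM at D10.

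B4galt5 (chr2:167298444-167349183, minus strand), a galactosyltransferase of glycolipid synthesis, went from 253, 187, 409, 345 and 308 CPM to 85.8, 69.3, 60.2, 122 and 57.4 CPM in TE. Its ICM means were 75.5 ± 25.5 and 93.3 ± 31.6 CPM. At D10, TE had therefore reached the range of ICM. Cbs, the first enzyme that turns homocysteine towards cysteine, fell in TE from 189.6 ± 38.2 to 33.2 ± 16.2 CPM (interaction 2.35 ± 0.44). Rpl36al fell in TE by 1.19 ± 0.20 (interaction 1.63 ± 0.29) and has a near-identical copy, with which its summed interaction was 1.65. Lrp2, a receptor for lipoproteins and vitamins, fell from 341 to 10 counts over the TE libraries, with an E4 TE range of 17 to 506 CPM, and its call was lost with limma voom. The cytoplasmic actins Actg1 (interaction 2.11) and Actb (1.16) also fell in TE only, and the call was lost after thinning for Actg1 and in 14 of 31 alternatives for Actb.

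Shared changes included the rise of Pdcd4 and the fall of Hsp90aa1. Pdcd4 (ENSMUSG00000024975, chr19:53892231-53929860, plus strand), an inhibitor of the helicase that starts translation, went from 127, 115, 116, 186 and 185 CPM to 608, 954, 1053, 967 and 1152 CPM in ICM. In TE it went from 230.2, 153, 87.6, 277 and 372 CPM to 1051, 1097, 1354, 1211 and 1803 CPM. Neither tissue had any overlap between times. Pdcd4 rose by 2.70 ± 0.28 (adjusted p = 1.91e-07) in ICM and 2.57 ± 0.28 (adjusted p = 1.93e-07) in TE, and the interaction was 0.13 ± 0.38.

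Pnpla2, the lipase that starts the breakdown of stored triglyceride, rose from 25.9 ± 11.2 to 116 ± 22.6 CPM in ICM and from 47.5 ± 11.4 to 199 ± 85.4 CPM in TE. Its interaction was 0.05 ± 0.38. Fbxo3, a ubiquitin ligase subunit, rose by 1.57 ± 0.25 and 1.63 ± 0.24 in ICM and TE. Ptpn3, a tyrosine phosphatase, rose by 1.49 ± 0.25 and 1.51 ± 0.26, and Pdlim1, a PDZ and LIM domain protein with a near-identical copy, by 1.80 ± 0.28 and 1.89 ± 0.28. The 66 shared rises had median changes of 0.99 in ICM and 0.91 in TE.

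Of the shared falls, Hsp90aa1 (ENSMUSG00000021270, chr12:110690605-110702728, minus strand), the inducible cytosolic HSP90 chaperone, went from 3506, 3056, 2655, 3062 and 3419 CPM to 761, 1404, 1224, 1116 and 1152 CPM in ICM. In TE it went from 4350.2, 4774, 3513, 3616 and 2533 CPM to 1077, 1278, 857, 1750.4 and 997 CPM. The times were apart in both tissues. Its changes were -1.47 ± 0.21 in ICM and -1.66 ± 0.21 in TE, with an interaction of 0.19 ± 0.29. Eif2s2, the beta subunit of the initiation factor eIF2, fell by 1.59 ± 0.20 and 1.76 ± 0.20, and Baz1a, a chromatin remodeller subunit, by 1.68 ± 0.24 and 1.77 ± 0.23. Rtn4, a protein that shapes the endoplasmic reticulum, fell by 1.38 ± 0.23 and 1.70 ± 0.23. Hsp90aa1 and Eif2s2 have near-identical copies, and the 3′ ends of Eif2s2 and Rtn4 overlap genes on the opposite strand, so their values are uncertain. Of the 84 shared falls 15 had a near-identical copy (17.9%).

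The proteasome, which degrades ubiquitin-tagged proteins, contributed 8 of the 84 shared falls, from 41 subunits and factors tested. None of the 41 had a called interaction. In ICM 25 fell and none rose, and in TE 11 fell and none rose, of which 10 fell in both. Over all rows tested, 9.88% fell in ICM, 9.82% in TE and 1.24% as shared falls. The median changes were -0.79 in ICM and -0.30 in TE. Summed proteasome levels were 9295 to 13542 CPM in E4 ICM and 5885 to 8021 CPM in D10 ICM, without overlap, and 7997 to 11153 CPM in E4 TE and 6308 to 7795 CPM in D10 TE, also without overlap. Psmb3 (chr11:97703399-97713500, plus strand), a core subunit with a near-identical copy, fell by 1.49 ± 0.25 in ICM and fell by 1.43 ± 0.24 in TE. The other 7 were Psma1, Psmb5, Psmc5, Psmc6, Psmd1, Psmd12 and Psmd3, which are named because they complete the count.

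Of 60 heat shock and co-chaperone genes tested, Ahsa1, Dnajb1, Hsp90aa1, Hsp90ab1, Hspa9 and Stip1 were shared falls and Dnajc30 was a shared rise. In ICM 17 fell and 4 rose, and in TE 11 fell and 5 rose, beside the overall falls of 9.88% and 9.82% given for the proteasome. The interaction was called lower for Dnajc21, Hspa4 and Dnajc1, and leaving out D10 ICM replicate 2 ended the call of Dnajc21 and Hspa4, as leaving out E4 TE replicate 5 did for Dnajc21. The Dnajc1 call was lost in 24 of 31 alternatives. Of 45 genes of protein folding in the endoplasmic reticulum, 3 had a called higher interaction (Pdia6, Xbp1 and Sec61g, against 3.1% of all rows tested), and 38 of the 45 interactions were positive. In TE 11 of these fell and 1 rose, and in ICM 1 fell and 3 rose. The 3′ end of Pdia6 overlaps a gene on the opposite strand, and its call was lost in 12 of 31 alternatives and that of Sec61g in 8 of 30.

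The tissue difference itself changed in 4 ways among the 278 genes. For 142 it was called at E4 and lost at D10, of which 73 had been higher in TE and 69 higher in ICM. For 95 it was gained, 64 with ICM and 31 with TE higher at D10. It turned in sign for 22 and was kept for 16, and 3 were called at neither time. These patterns follow from the same libraries as the interaction and are descriptions.

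**Figure D4:**
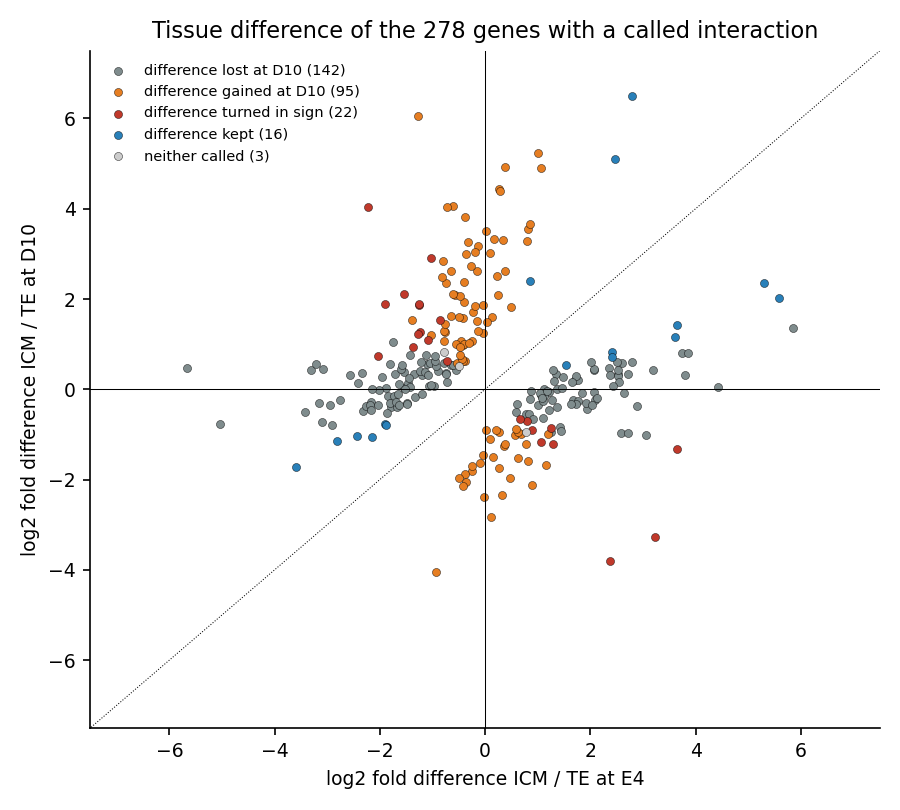
ICM minus TE difference on the log2 scale at E4 (x axis) and D10 (y axis) for the 278 protein-coding genes with a called interaction, coloured by pattern. The 142 lost differences lie near the horizontal axis, the 95 gained ones near the vertical axis, and the 22 that turned lie at the upper left and lower right.

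Among the 22 that turned, 13 went from higher in TE to higher in ICM and 9 the other way. Ppp1cc (chr5:122158278-122175273, plus strand), a catalytic subunit of protein phosphatase PP1, stood at 97.8, 108, 80.3, 83.7 and 122 CPM in E4 TE and 1.83, 0, 2.01, 1.75 and 0 CPM in D10 TE. In ICM it stood at 25.4, 20.9, 23.2, 14.5 and 21.5 CPM at E4 and 23.8, 24.7, 11.1, 36.7 and 13.9 CPM at D10. TE thus lay above ICM in every E4 library and below it in every D10 library. D10 TE held 3 counts in all, a ratio of 76.3 (counting interval 25.5 to 374) for E4 over D10. Ppp1cc has the near-identical copies Ppp1ccb and Gm9231, and with these summed its interaction was 2.24 and stayed called.

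Ooep, a component of the maternal complex of the oocyte and early embryo, fell in TE from 137 ± 76.9 to 4.43 ± 1.88 CPM and had an interaction of 3.94 ± 0.60. Its ICM change of -0.85 ± 0.37 missed the threshold. AA986860 had an interaction of 3.79 ± 0.70, and Rps27rt, a retrocopy of a ribosomal protein gene, one of 2.30 ± 0.33. Rps27rt has a near-identical copy in Rps27 and overlaps Osbpl10 on the opposite strand, and with the copies summed its interaction was 1.46 and stayed called.

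In the other direction, Ceacam1 (chr7:25461707-25477603, minus strand), an adhesion molecule of epithelia, had 1 count over the E4 TE libraries and stood at 257, 118, 100.3, 76.9 and 98.3 CPM in D10 TE. In ICM it stood at 6.34, 7.84, 9.27, 6.2 and 17.2 CPM at E4 and 19.0, 13.2, 33.2, 6.3 and 9.29 CPM at D10. The D10 TE libraries lay above all other libraries. The ratio of D10 TE (329 counts) to E4 TE was 194, with a counting interval of 34.6 to 7690. Ceacam1 shares sequence with Ceacam2 and overlaps an antisense gene, so its counts are uncertain. Srpk2, a kinase of splicing factors, rose in TE from 18.4 ± 10.6 to 62.0 ± 1.96 CPM (interaction -2.50 ± 0.46), and its 3′ end overlaps Kmt2e on the opposite strand.

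Few genes of growth and division had a called interaction. Over all rows tested, 9.88% fell in ICM and 9.82% in TE, beside which the following counts stand. Of 53 ribosome biogenesis genes, 14 fell and none rose in ICM, while 4 fell and 4 rose in TE. Their median change was -0.45 in ICM and -0.05 in TE, and Rrp9 and Nop2 had a called lower interaction, lost for Nop2 in 19 of 31 alternatives and for Rrp9 without E4 TE replicate 4 or D10 TE replicate 4. Of 51 mitosis genes, 4 fell and 2 rose in ICM while 15 fell and none rose in TE, with medians of -0.41 and -0.74, and Plk1 alone had a called interaction, a higher one that was lost with the replicate block and in 14 other alternatives. Of 43 S phase genes, Uhrf1 and Mcm7 had a called lower interaction, with 4 falling in ICM and 2 in TE.

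Chromatin regulators had called interactions mostly on the lower side, and most of these lower calls were lost in some alternative. Of 16 DNA methylation genes, Hells, Uhrf1 and Trim28 were called lower and Dnmt3l higher. Of 29 Polycomb and histone genes, Rbbp7, Hat1 and Eed were called lower and none higher, with 8 falling and none rising in ICM and 3 falling and 4 rising in TE. Translation factors had 3 lower interactions of 62 (Eif4e2, Eef1d and Eef2kmt) and none higher. In ICM 3 of the 62 rose and 13 fell, and in TE 13 rose and 6 fell. The Eef2kmt call was lost in 26 of 29 alternatives, the replicate block among them, and that of Eed in 8 of 31. Without the E4 litters with a zona, the calls of Trim28, Rbbp7, Hat1, Eed, Eif4e2 and Eef1d were lost. Thinning ended those of Uhrf1, Hat1 and Eed, and running without a filter those of Trim28 and Eed. Hells and Dnmt3l kept their calls in all 31. The share of all protein-coding genes called lower was 1.75%, and that called higher was 2.41%. In ICM 12.8% of them rose and 10% fell, and in TE 11.7% rose and 9.48% fell.

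Cytosolic ribosomal protein genes were mixed. Of 80 tested, Rpl37, Rps10, Rps21, Rpl13, Rps24 and Rps12 were called higher and Rpl32, Rpl41 and Rps9 lower. In ICM 17 rose and 7 fell, and in TE 11 rose and 7 fell. Beside this, 12.8% of all protein-coding genes tested rose and 10% fell in ICM, and 11.7% rose and 9.48% fell in TE. Many of these genes have processed copies that share their 3′ ends, and Rpl37 and Rpl41 lost their calls once copies were summed. Without the E4 litters with a zona, the calls of Rps10, Rps21, Rpl13 and Rpl41 were lost. That of Rpl13 was also lost without D10 ICM replicate 3 and D10 TE replicate 1 together. Of 71 mitochondrial ribosome genes 1 was called, and of 88 nuclear genes of the respiratory chain Ndufv1 and Atp5md were called higher. No gene of the splicing list (82 tested), the lipid storage list (25) or the tRNA synthetase list (21) had a called interaction.

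Lysosome and arrest-related lists had more rises than falls in both tissues and few called interactions. Over all 6680 protein-coding genes tested, 12.8% rose in ICM, 11.7% rose in TE and 369 genes rose in both. Of 37 lysosomal genes, 14 rose in ICM and 12 in TE, 10 in both, and Neu1 (higher) and Fuca1 (lower) had a called interaction, lost after thinning for Neu1 and in 21 of 31 alternatives, the replicate block included, for Fuca1. Of 17 subunits and partners of the proton pump that acidifies lysosomes, Atp6v1h and Atp6ap1 were called higher, the latter with a call lost in 13 of 31 alternatives. Of 14 quiescence genes, 6 rose in ICM and 6 in TE, 5 of them in both. Klf6 and Ccng2 of that list fell in TE only. Klf6, a zinc finger transcription factor, went from 413 ± 89.8 to 242 ± 24.1 CPM in TE, while Ccng2, a cyclin of arrested cells, ranged from 24.9 to 467 CPM in E4 TE and lost its call without D10 ICM replicate 4. Of 9 S100 calcium-binding genes, 4 rose in ICM and 7 in TE, with medians of 2.36 and 2.27 and no called interaction. Of 7 annexins, 5 rose in ICM and 3 in TE, and Anxa2 and Anxa4 were called higher, Anxa4 with a call lost in 14 of 31 alternatives.

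**Figure D5:**
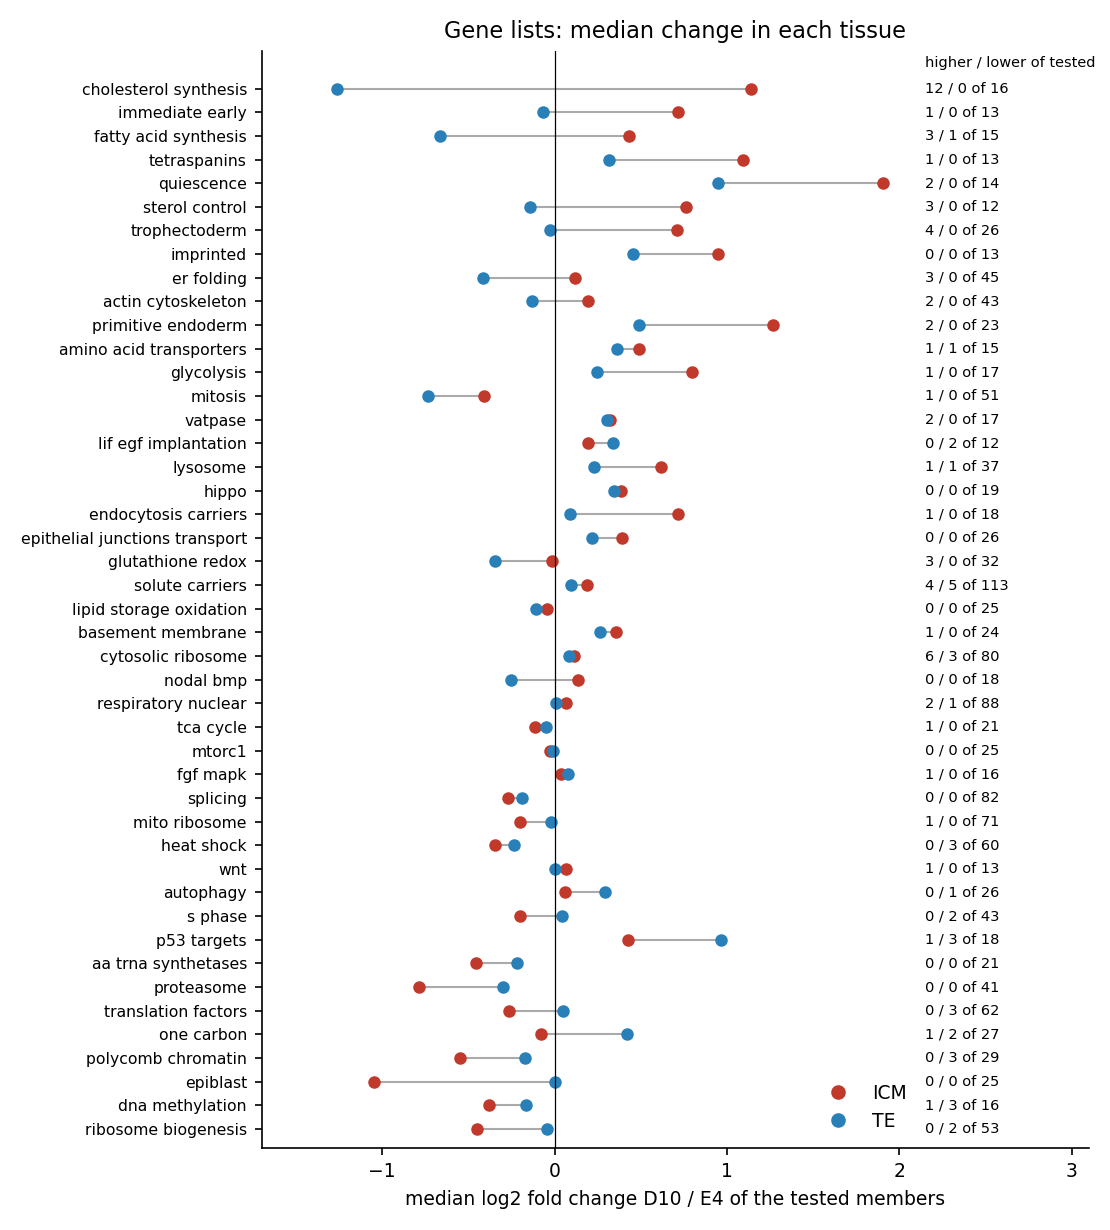
Median log2 change from E4 to D10 in ICM and in TE of the 45 gene lists with 12 or more tested members, with the number of members whose interaction was called higher and lower at the right. Cholesterol synthesis has the widest gap, with medians of 1.14 and -1.26.

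None of the lineage factors had a called interaction. Nanog, a pluripotency factor, went from 174 ± 54.6 to 33.8 ± 25.2 CPM in ICM, a fall of 2.55 ± 0.44 in log2 units, and had 10 and 4 counts over the TE libraries. Sox2, the other pluripotency factor, lay at 277 ± 99.6 and 303 ± 193 CPM in ICM, with 1 and 0 counts in TE. Gata4 and Sox17, of primitive endoderm, had ICM changes of 0.62 ± 0.44 and 0.84 ± 0.38, neither called. In TE, Cdx2 rose by 1.11 ± 0.28 and Eomes fell by 1.36 ± 0.22, while Gata3 changed by 0.39 ± 0.20 and was not called there. The interactions of Cdx2, Gata3 and Eomes were -0.36 ± 0.44, 0.28 ± 0.28 and 0.86 ± 0.32.

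Lists built around these factors were then counted, where 2.41% of all protein-coding genes had a called higher interaction. Of all these genes, 12.8% rose and 10% fell in ICM, and 11.7% rose and 9.48% fell in TE. Of 25 epiblast genes 13 fell in ICM and 4 in TE, with none called for the interaction. The 6 epiblast markers had 181 counts over all E4 TE libraries and 203 over all D10 TE libraries, which limits what the lack of interaction calls there can show. In ICM these 6 markers summed to 1367 to 2349 CPM at E4 and 479 to 882 CPM at D10, without overlap. Their part in the genes falling in ICM only was not tested. Of 23 primitive endoderm genes 10 rose in ICM and 4 in TE, and Lrp2 and P4ha2 had a higher interaction, both as falling in TE only. Of 26 TE genes, 8 rose in ICM and 5 in TE, and Cldn7, Slc2a3, Cldn4 and Wnt7b were called higher, the first 3 as rising in ICM only. The Cldn4 call was lost in 14 of 31 alternatives. The summed level of 7 trophectoderm markers was 2034 to 2864 CPM in E4 ICM and 3121 to 4254 CPM in D10 ICM, against 6186 to 7655 and 5737 to 9324 CPM in TE. All D10 ICM libraries thus held a larger share of TE marker RNA than the E4 ICM libraries, and the part of this in genes rising in ICM only was not tested. D10 TE replicate 1 had the most primitive endoderm marker RNA of its group (1256 CPM, group median 481). Uterine epithelium markers (7 in the table) summed to 114 to 287 CPM in E4 TE, with Ltf and Sprr2f at 0, and to 391 to 475 CPM in D10 TE, with Ltf and Pgr at 0. These ranges did not overlap, and their part in the genes rising in TE only was not tested. In ICM they summed to 67.2 to 205 CPM at E4 and 138 to 299.7 CPM at D10. Over all groups, uterine stroma markers summed to at most 22 CPM and blood and immune markers at most 137 CPM.

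Library totals ran from 144276 to 1010354 counts, with 144276 to 506584 in E4 TE and 449524 to 579016 in D10 TE, and 9458 to 14402 genes had a count. Mitochondrial genes took 7.86% to 18.9% of counts. With all libraries thinned to 1 common total, 87 higher and 55 lower interactions were called. A missed threshold at these totals does not show that a gene changed equally in both tissues.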

How the data were processed

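Polyadenylated RNA of 20 libraries, 5 for each of E4 ICM, D10 ICM, E4 TE and D10 TE, was measured by BRB-seq. All values started from 1 table of raw read counts for each gene and library, deposited by the authors. Tools listed in the submitters' processing notes are featureCounts 2.0.1, HISAT2 2.2.1, Trim Galore 0.6.7 and UMI-tools, with builds GRCh38 and GRCm38. Not given in the sources used here are UMI collapsing, strand use and the counted annotation.

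Counts were fitted with edgeR 4.0.16 in R 4.3.3 (TMM factors, filterByExpr with a minimum count of 10, robust quasi-likelihood fit, 1 mean per group). The interaction and both time changes were contrasts of that fit, with Benjamini-Hochberg adjustment within each comparison over 6943 rows and a threshold of 0.05. The script was tested on simulated data. Gene positions came from the GENCODE annotation of GRCm38. A near-identical copy shared at least 30% of the 50-base words in the last 300 bases.

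Alternatives were DESeq2 1.42.0, limma 3.58.1 voom, RLE factors, minimum count 20, no filter, thinned libraries, each library left out, the E4 litters with a zona left out, and the litter as a block. Alternatives added after the data were seen left out 2 libraries together, summed near-identical copies, or left out genes with a copy. The barcode list gives the litters. Same-litter ICM and TE deviations from their group means correlated at 0.177 on average at E4 (0.104 to 0.263) and 0.168 at D10 (-0.0302 to 0.293), across genes.

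Named genes were those with the smallest adjusted interaction p in each class (6 per opposite class, 5 per class restricted to 1 tissue of at least median level whose libraries did not overlap), the 5 shared genes per direction with the smallest larger p, 5 per direction of turned difference, up to 6 per list, and 7 lineage genes. Clone names were left out, and some genes the rule names are not reported here. Members and lists were chosen with earlier results of these data known.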

Additional observations from a re-analysis of the deposited data

Results flagged for a closer look

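The interaction is itself a test of a difference between tissues, so its calls are collected here. It was higher for 161 and lower for 117 protein-coding genes. Among genes with opposite changes, it was 3.78 for Serf2, 2.66 for Rpl37, 4.17 for Srebf2, 2.30 for Rps27rt and 2.93 for Dnmt3l. It was -3.68 for Tuba4a, -2.38 for Hells, -1.86 for Ei24, -1.66 for Prep, -6.18 for Gulo and -2.72 for Pnpla6.

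Over 55 named genes, 220 groups of 5 libraries were searched for 1 library far from the other 4 by Dixon's criterion (gap over range above 0.71), and 13 were found, where chance gives about 5%. Among sterol genes, these were Msmo1 in D10 TE replicate 3 (62.2 CPM, the others 41.9 to 46.4) and Mvd in E4 ICM replicate 5 (90.3 CPM). Dnmt3l stood apart in E4 ICM replicate 3 (308 CPM), Gulo in D10 TE replicate 3 (144 CPM) and Ddah2 in E4 TE replicate 3 (80.3 CPM). B4galt5 was low in E4 ICM replicate 1 (31.7 CPM), as was Srpk2 in that library (31.7 CPM). Rpl36al was high in D10 TE replicate 2 (161 CPM), Pnpla2 in D10 TE replicate 3 (351 CPM) and Baz1a in E4 ICM replicate 4 (488 CPM). Ceacam1 was high in E4 ICM replicate 5 (17.2 CPM), in E4 TE replicate 4 (1.99 CPM, 1 count) and in D10 TE replicate 1 (257 CPM).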

How the results depend on the processing

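No named gene with a called interaction changed its sign under any alternative run. Counts stayed within 1.5 times of those reported with DESeq2, RLE factors, a minimum count of 20, limma voom, and near-identical copies summed or left out. Without a filter, 252 genes had a higher interaction, 38 were opposite with ICM up, and 94 fell in TE only. With litter as a replicate block, 247 were higher, 180 lower and 78 fell in ICM only. Without the E4 litters with a zona, 102 were higher, 52 lower, 12 and 4 opposite (ICM up, ICM down), 36 and 12 up and down in ICM only, 32 up in TE only, and 14 and 27 shared up and down. At 1 common total, 87 were higher, 55 lower, 12 and 3 opposite, 39 and 17 up and down in ICM only, 31 and 31 in TE only, and 39 and 28 shared. Without D10 ICM replicate 3 and D10 TE replicate 1, 73 were lower, 5 opposite with ICM down, and 28 down in ICM only. Fewer samples or counts enter the last 3 settings, and the cause of these and of the other shifts was not tested.

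Leaving out 1 library gave 134 to 195 higher, 73 to 114 lower, 16 to 28 and 3 to 9 opposite, 52 to 89 and 24 to 50 in ICM only, 39 to 50 and 51 to 72 in TE only, and 40 to 71 and 57 to 79 shared. Shifts over 1.5 times came without D10 ICM replicate 2 (73 lower, 3 opposite with ICM down, 24 down in ICM only), E4 ICM replicate 1 (4 and 31), E4 ICM replicate 2 (3 and 31), E4 ICM replicate 5 (5 opposite with ICM down), E4 TE replicate 4 (4) and E4 TE replicate 2 (40 shared up). The lowest totals, in E4 TE, limit detection of genes near 0 there.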

Other observations

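Several gene groups lay outside the comparisons above. For their counts, 12.8% of all protein-coding genes tested rose in ICM and 11.7% in TE. Of 18 p53 pathway genes, Bcl2l1 was called higher and Ei24, Tigar and Trp53 lower, with 5 rising in ICM and 7 in TE. The Tigar call was lost in 14 of 31 alternatives. Of 113 solute carriers 4 were called higher and 5 lower. Of 32 glutathione genes, Gsta4, Mgst3 and Gpx4 were called higher and none lower, and the Gpx4 call was lost in 16 of 29 alternatives, the replicate block among them. Of 27 one-carbon genes, Cbs was called higher and Shmt1 and Paics lower, where Paics lost its call in 26 of 31 alternatives. Of 17 glycolysis genes 7 rose in ICM and 4 in TE, with 1 called higher, and of 13 imprinted genes none was called.

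Rows of other biotypes had a larger share of called interactions than protein-coding rows, which had 2.41% higher and 1.75% lower. Of 263 such rows, 54 were called higher (20.5%) and 9 lower (3.42%). Processed pseudogenes made up 43 of those higher rows, out of 136 tested (31.6%). Pseudogenes took 3.20% to 3.88% of counts in E4 ICM and 4.44% to 6.31% in D10 ICM, without overlap, and 3.81% to 4.75% in E4 TE and 3.13% to 4.98% in D10 TE, with overlap.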
